A study of Mus musculus with 10 samples.

Results

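The 4 genes described here are the trefoil factor genes TFF1 and TFF3 and the anterior gradient genes AGR2 and AGR3, taken by name from a count table of 58735 human genes. All 4 were present in the table, and all 4 were among the 16913 genes that passed the low-count filter. They were chosen by name with the counts of these same libraries, and the IL-15 over control fold changes made from them, in view. Their levels and their differences between the groups are therefore a description, and no test below supports the choice of these genes.

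RNA was taken from tumours that LNCaP cells, a human prostate cancer line that responds to androgen, had formed under the skin of mice of the strain NOD.Cg-Prkdcscid Il2rgtm1Wjl/SzJ, which lack their own T, B and NK cells but keep mouse stroma and myeloid cells. The 5 IL-15 tumours came from mice given sip-T (sipuleucel-T, a product of cultured human blood cells) with 1 µg of recombinant human IL-15 under the skin, and the 5 control tumours from mice given control sip-T and a sham dose of PBS. Cells were given into the peritoneum 4 times, a week apart, with 5000000 cells in 100 µl each, and collection followed on day 7 after the final dose. The sample labels name the same control cells in both groups, whereas the series text has cells treated with IL-15, so treatment of the cells and injection of the cytokine cannot be told apart. All tumours derive from 1 cell line, and neither the number of blood donors nor a separate mouse for each tumour is stated, so errors measure the spread between these libraries.

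Trefoil factors are small secreted peptides held together by disulphide bonds, which mucous epithelia release together with mucins and which take part in repair of the epithelial surface. TFF1 is best known as an oestrogen-induced transcript of breast cancer cells, and TFF3 as a product of intestinal goblet cells. AGR2 and AGR3 encode relatives of the protein disulphide isomerases, enzymes that form disulphide bonds in the endoplasmic reticulum. AGR2 is needed for mucin production in the mouse intestine and is known as an androgen-induced gene in prostate cancer cells.

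Total counts ran from 13560224 to 19324056 per library. A floor of 3 counts stood between 0.155 and 0.221 CPM (counts per 1000000 counts of the library), for counting error only. The tumours carried the prostate luminal identity of the label, with the summed 9 luminal markers at 8780 to 14000 CPM in IL-15 tumours and 7850 to 11800 CPM in control tumours. Basal markers were uneven. TP63 had no count in any library and KRT5 had 8 counts in all 10, whereas KRT14 measured 46.1 ± 20.7 CPM in IL-15 tumours and 43.3 ± 25.1 CPM in control tumours (SD, n = 5 each). ITGB4, DST and KRT15 were also detected, with 2309, 2469 and 775 counts in all. The sum of the 6 basal markers was 64.9 to 106 CPM in IL-15 tumours and 38.6 to 129 CPM in control tumours.

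TFF1 and TFF3 were higher in 4 of the 5 IL-15 tumours than in any control tumour. TFF1 (ENSG00000160182, chromosome 21, 42362282 to 42366594 on hg38, minus strand) measured 5.94, 0.776, 5.47, 3.00 and 6.42 CPM in IL-15 tumours 1 to 5, against 1.26, 0.692, 1.02, 1.32 and 0.132 CPM in control tumours 1 to 5. IL-15 tumour 2 lay within the control range, and the other 4 lay above it. Behind these values stood 305 reads in IL-15 tumours and 70 in control tumours. Control tumour 5 rested on 2 reads, with an exact 95% counting interval of 0.0159 to 0.476 CPM, and so stood under the floor. The mean was 4.32 ± 2.38 CPM in IL-15 tumours and 0.884 ± 0.487 CPM in control tumours (SD, n = 5 each), a log2 fold change of 2.18 ± 0.56 (edgeR, standard error).

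TFF3 (ENSG00000160180, chromosome 21, 42311667 to 42315651, minus strand) measured 19.6, 6.05, 13.1, 14.6 and 30.9 CPM in IL-15 tumours 1 to 5, against 8.42, 3.53, 3.82, 7.96 and 5.07 CPM in control tumours 1 to 5. The same tumour, IL-15 tumour 2, was again the one inside the control range, and IL-15 tumour 5 was again the highest. The mean was 16.8 ± 9.23 CPM in IL-15 tumours and 5.76 ± 2.30 CPM in control tumours (SD, n = 5 each), a log2 fold change of 1.47 ± 0.38. The third member of the human family, TFF2, lies between them on the chromosome and was nearly silent. TFF2 had 13 reads in all, 5 in IL-15 tumours and 8 in control tumours, and at most 4 in any library.

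AGR2 split the IL-15 tumours in another way. AGR2 (ENSG00000106541, chromosome 7, 16791811 to 16833433, minus strand) measured 116, 47.7, 88.4, 109 and 21.2 CPM in IL-15 tumours 1 to 5, against 55.0, 61.9, 36.3, 34.3 and 41.5 CPM in control tumours 1 to 5. IL-15 tumours 1, 3 and 4 lay above every control tumour, IL-15 tumour 2 lay among them, and IL-15 tumour 5 lay below all of them. IL-15 tumour 5, highest of the 10 libraries for both trefoil factors, was thus the lowest for AGR2. The mean was 76.6 ± 40.9 CPM in IL-15 tumours and 45.8 ± 12.1 CPM in control tumours (SD, n = 5 each), and the coefficient of variation was 53.4% in IL-15 tumours and 26.4% in control tumours. The log2 fold change was 0.65 ± 0.38 with all libraries and 0.89 ± 0.24 without IL-15 tumour 5.

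AGR3 was scarce in both groups. AGR3 (ENSG00000173467, chromosome 7, 16859405 to 16881987, minus strand) measured 0.807, 0.673, 2.19, 1.78 and 0.295 CPM in IL-15 tumours 1 to 5, against 0.730, 0.415, 0.254, 0.172 and 1.97 CPM in control tumours 1 to 5. The groups overlapped, with IL-15 tumour 3 alone above every control tumour and control tumour 5 above the other 4 controls. Counts ran from 3 to 32 reads per library, so the values for IL-15 tumour 5 (4 reads, 0.0804 to 0.755 CPM) and control tumour 4 (3 reads, 0.0354 to 0.502 CPM) could not be distinguished at this depth. The log2 fold change was 0.59 ± 0.66, with 1.48 ± 0.60 without control tumour 5 and 0.27 ± 0.70 without IL-15 tumour 3.

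**Figure D1:**
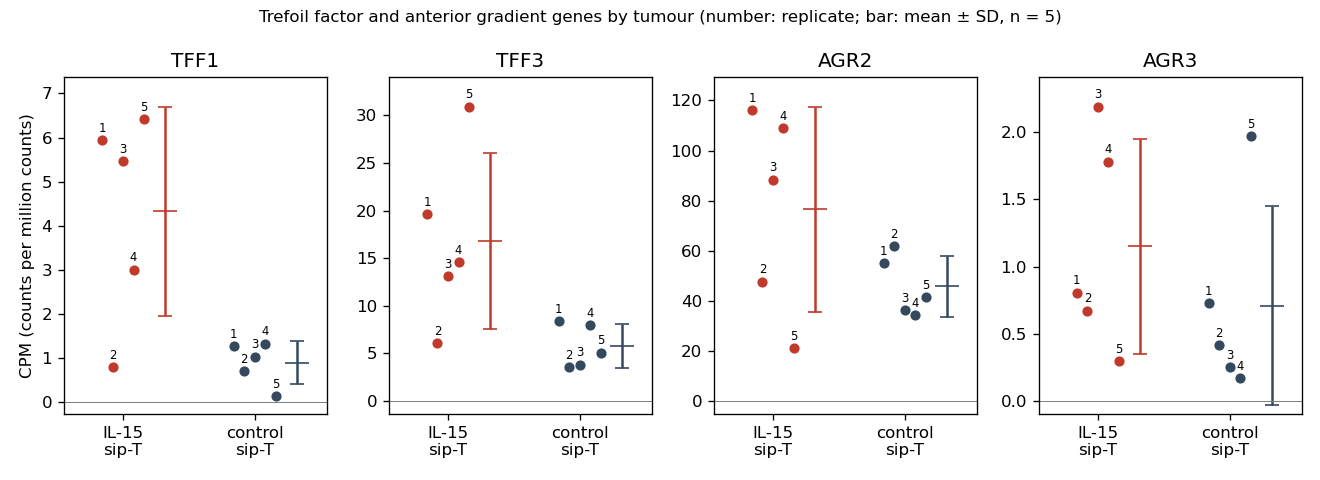
CPM of TFF1, TFF3, AGR2 and AGR3 on linear axes in the 5 IL-15 sip-T and 5 control sip-T libraries; points are libraries with their replicate number, and bars are the mean ± SD. For TFF1 and TFF3 all IL-15 libraries but number 2 lie above the controls, whereas for AGR2 IL-15 library 5, at 21.2 CPM, lies below all of them.

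In edgeR's quasi-likelihood test over all genes, 0 of 16913 passed a Benjamini-Hochberg adjusted p of 0.05 (0%), so none of the 4 genes was called. The edgeR adjusted p was 0.758 for TFF1 and for TFF3, 0.779 for AGR2 and 0.890 for AGR3, and 0.758 was also the smallest over all genes. At an unadjusted p under 0.05 stood 1092 genes (6.46%), of which 512 were higher in IL-15 tumours (3.03% of those tested), TFF1 and TFF3 among them. A log2 fold change of 1 or more was found for 304 genes (1.8%), again with TFF1 and TFF3. DESeq2 called 7 genes over the same 16913 (1246 at an unadjusted p under 0.05), none of the 4 genes among them, with an adjusted p of 0.0651 for TFF1 and 0.0685 for TFF3. On every gene with a count, DESeq2 called 15 (1683 at an unadjusted p under 0.05), and TFF1 was one of them (adjusted p = 0.0485), a setting chosen after the data had been seen. At least 4 of 5 IL-15 libraries above every control library were found for 637 tested genes (3.77%), and for 87 (0.514%) all 5 were above.

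The 4 genes varied more between tumours than most genes of their level. The standard deviation of log2 CPM over the 10 libraries was 1.46 for TFF1, 0.97 for TFF3, 0.74 for AGR2 and 1.05 for AGR3. Among the genes whose mean log2 level lay within 0.5 of each member, 96.8%, 94.4%, 97.9% and 92.2% varied less than TFF1, TFF3, AGR2 and AGR3. This SD includes the difference between the groups, which was in view when the genes were chosen. High shares therefore follow in part from that choice. From the lowest to the highest library AGR2 spanned 5.5-fold and TFF3 8.76-fold. Within the control tumours alone, which received the same treatment, TFF3 still spanned 2.39-fold and AGR2 1.81-fold. These spans were not set against those of other genes.

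Compared per gene length, in the authors' deposited FPKM (fragments per kilobase of gene, scaled to library size), AGR2 was the most abundant of the 4 in 9 of 10 libraries. AGR2 averaged 23.3 ± 12.2 FPKM in IL-15 tumours and 15.0 ± 3.54 FPKM in control tumours (SD, n = 5 each). TFF3 followed with 12.7 ± 7.23 FPKM in IL-15 tumours and 4.58 ± 1.66 FPKM in control tumours. TFF1 averaged 6.79 ± 3.70 FPKM in IL-15 tumours and 1.49 ± 0.805 FPKM in control tumours, and AGR3 0.854 ± 0.567 FPKM in IL-15 tumours and 0.580 ± 0.627 FPKM in control tumours. In IL-15 tumours the spreads of neighbouring genes in this order overlapped for AGR2 with TFF3 and for TFF3 with TFF1.

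The exception to the order was IL-15 tumour 5, where TFF3 at 24.1 FPKM and TFF1 at 10.6 FPKM both exceeded AGR2 at 6.78 FPKM. There AGR2 stood at 0.281 times TFF3 per length, against 2.44 to 3.23 times in the other 4 IL-15 tumours and 1.77 to 7.2 times in control tumours. Among all protein-coding genes of its own library, TFF3 exceeded 91.0% in IL-15 tumour 5 and 53.0% in control tumour 2. AGR2 exceeded 94.8% in IL-15 tumour 1 and 70.1% in IL-15 tumour 5. TFF3 exceeded TFF1 per length in all 10 libraries, by 1.13 to 3.68 times in IL-15 tumours and by 1.77 to 18.2 times in control tumours, the last in control tumour 5 with its 2 TFF1 reads.

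**Figure D2:**
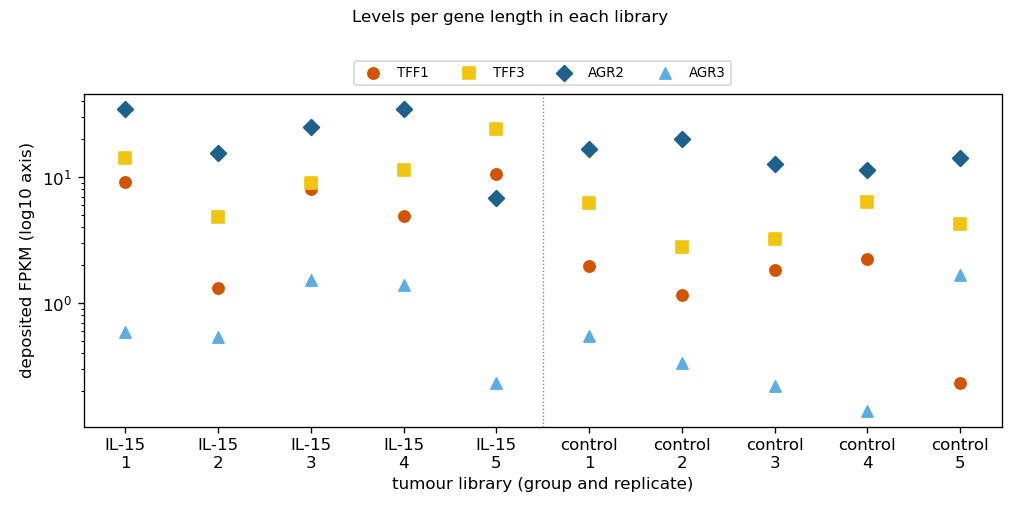
Deposited FPKM of the 4 genes in each library, on a log10 axis, with IL-15 sip-T libraries left of control sip-T libraries. AGR2 is the highest of the 4 everywhere except in IL-15 library 5, where TFF3 reaches 24.1 FPKM and AGR2 stands at 6.78 FPKM.

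Across tumours the correlation was 0.84 for the trefoil pair and 0.61 for the anterior gradient pair, and the difference between them was not tested. Correlations are given as a description over 10 libraries of log2 CPM, which share group, depth and scaling. TFF1 and TFF3 had a Pearson r of 0.84 and a Spearman rho of 0.92, with r from 0.80 to 0.91 when each library was left out in turn. With the group means removed their r was 0.65. AGR2 and AGR3 had r = 0.61 and rho = 0.64, with r from 0.52 to 0.78 when each library was left out and 0.57 with the group means removed.

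For AGR2 and the trefoil factors the values changed most when IL-15 tumour 5 was left out. TFF3 and AGR2 had r = 0.03 over all 10 libraries and 0.73 without IL-15 tumour 5, and TFF1 and AGR2 had r = 0.20 and 0.70. With the group means removed, and that tumour kept, these values were -0.32 and -0.05. TFF1 and AGR3 had r = -0.07, from -0.28 without IL-15 tumour 3 to 0.37 without control tumour 5, and -0.46 with the group means removed. TFF3 and AGR3 had r = 0.10, from -0.05 without control tumour 3 to 0.42 without IL-15 tumour 5, and -0.22 with the group means removed.

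**Figure D3:**
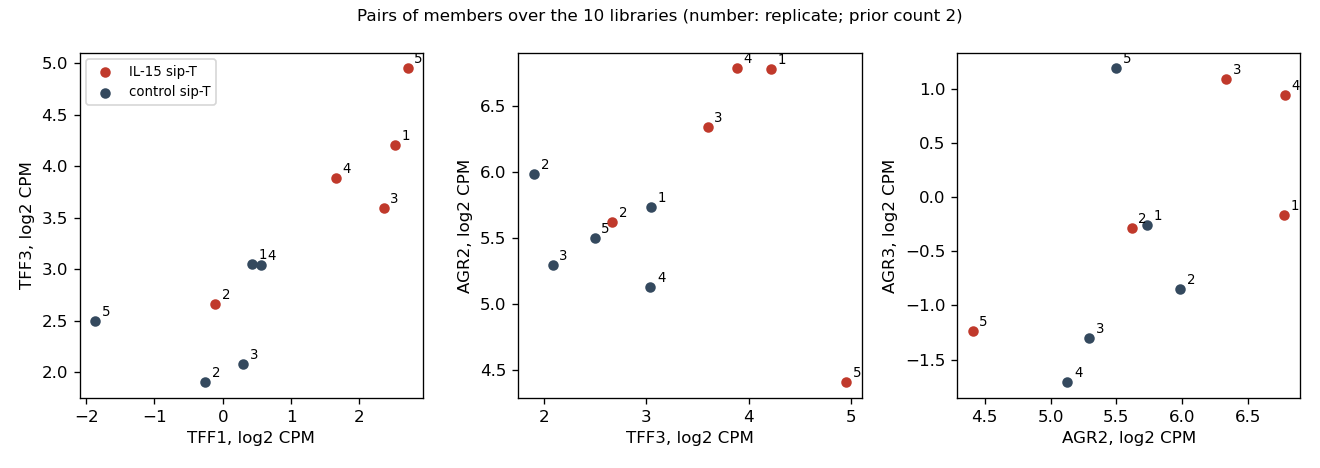
Log2 CPM of TFF3 against TFF1, AGR2 against TFF3 and AGR3 against AGR2, with points coloured by group and numbered by replicate. The trefoil pair rises along a diagonal (r = 0.84), whereas in the middle panel IL-15 library 5 lies apart from the others at the lower right.

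Both pairs sit next to each other in the genome, on the same strand. TFF1 and TFF3 are 46.6 kb apart with TFF2 in between, and AGR2 and AGR3 are 26 kb apart. No other gene of the table overlapped TFF1, TFF3 or AGR2. AGR3 overlapped 1 processed pseudogene, RAD17P1, with 6 reads in all.

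Within 250 kb of the trefoil genes 3 other protein-coding genes could be tested. RSPH1, a gene of the cilium radial spoke, had 4.92 to 13.6 CPM (median 11.1) in IL-15 tumours and 2.42 to 6.96 CPM (median 4.61) in control tumours, with 4 of 5 IL-15 tumours above every control tumour. Its log2 fold change was 1.03 ± 0.31, and its r was 0.79 with TFF1 and 0.87 with TFF3. ABCG1, a cholesterol exporter gene, had a log2 fold change of 0.88 ± 0.42, and SLC37A1, a sugar phosphate transporter gene, one of 0.18 ± 0.29. RSPH1 and SLC37A1 overlap at their starts, and with strand use in counting not given by the sources used here, reads from that stretch cannot be told apart. TFF2, TMPRSS3 and UBASH3A, which lie nearer to TFF1 than RSPH1 does, were too scarce to test.

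Around the anterior gradient genes the other protein-coding genes had log2 fold changes from -0.35 to 0.30. AHR, the aryl hydrocarbon receptor gene, had 0.30 ± 0.37, ANKMY2 -0.04 ± 0.21, the tetraspanin gene TSPAN13 -0.26 ± 0.17 and BZW2 -0.35 ± 0.18. AHR had an r of 0.58 with AGR2, TSPAN13 -0.03 and BZW2 -0.56. None of these neighbours passed edgeR over all genes (adjusted p from 0.758 for RSPH1 to 0.981 for ANKMY2).

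**Figure D4:**
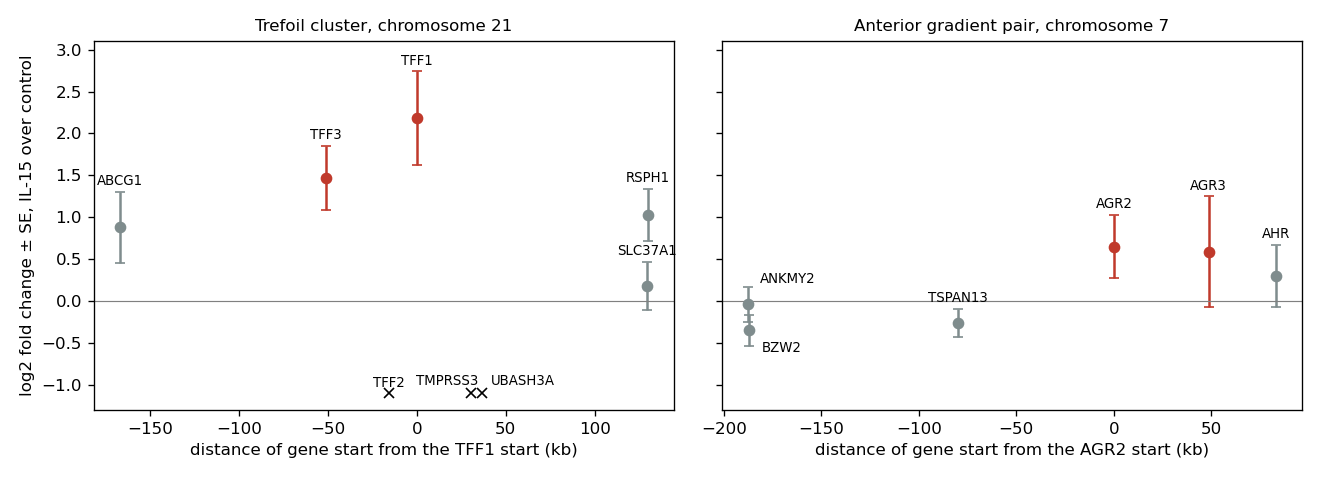
Log2 fold change ± SE (edgeR, IL-15 over control) of protein-coding genes against the distance of their start from that of TFF1 or AGR2 in kb; members are red, and crosses at a fixed height at the foot, which is no value, mark genes too scarce to test. RSPH1 (1.03) and ABCG1 (0.88) lie above 0 on either side of the trefoil pair, while the genes left of AGR2 lie below 0.

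The relatives of the 4 genes and the lists around them held no called gene. Among all tested genes the fold change was above 0 for 49%, and its log2 median was -0.01. Of 13 protein disulphide isomerase relatives and trefoil genes, 11 could be tested, 5 above and 6 below 0, with a median of -0.04 and 0 called. ERP29, a chaperone of the endoplasmic reticulum, measured 118 ± 23.1 CPM in IL-15 tumours and 89.7 ± 9.09 CPM in control tumours, and PDIA2, an isomerase gene, 4.06 ± 2.65 CPM in IL-15 tumours and 9.03 ± 6.68 CPM in control tumours (SD, n = 5 each). The log2 fold change was 0.33 ± 0.19 for PDIA5 and 0.16 ± 0.15 for ERP44. TXNDC12, a close relative of AGR2, measured 11.1 ± 1.5 CPM in IL-15 tumours and 10.7 ± 0.658 CPM in control tumours.

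Of 19 endoplasmic reticulum stress genes, 18 were tested, 6 above and 12 below 0 (median -0.05), and 0 were called. HSPA5, the main chaperone of that compartment, had a log2 fold change of -0.02 ± 0.22, and HSP90B1, a second chaperone gene, one of 0.32 ± 0.19. The degradation gene SEL1L had 0.32 ± 0.24, the secreted stress protein gene MANF -0.33 ± 0.22 and the chaperone gene HYOU1 -0.25 ± 0.2. Across the libraries PDIA3 and HSP90B1 had the highest r with AGR2 of their lists, 0.88 and 0.82. The r with AGR2 over the 11 tested relatives ran from -0.51 to 0.88 with a median of 0.21, and over the 18 tested stress genes from -0.58 (ATF4) to 0.82 with a median of 0.25, beside a median of 0.01 over all tested genes. In IL-15 tumour 5, where AGR2 was lowest, PDIA3 stood at 250 CPM and HSP90B1 at 496 CPM, the lowest of the IL-15 group for each. Control tumour 3 was lower still for both, at 246 and 397 CPM, and control tumour 4 for HSP90B1, at 464 CPM.

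Mucins, the usual partners of trefoil factors, had members on both sides of 0. Of 22 mucins and secretory products, 13 were tested, 6 above and 7 below 0 (median -0.16), with 0 called. MUC5B, a gel-forming mucin gene, measured 0.554 ± 0.0991 CPM in IL-15 tumours and 1.49 ± 0.712 CPM in control tumours, a log2 fold change of -1.51 ± 0.43. It was scarce, with 155 reads in all and at most 32 in any library. Control tumour 4, at 0.344 CPM, lay below every IL-15 tumour (0.414 to 0.684 CPM). MUC5AC, the mucin most often found with TFF1 in the stomach, measured 18.2 ± 12.5 CPM in IL-15 tumours and 22.8 ± 15.4 CPM in control tumours (log2 fold change -0.39 ± 0.56). GALNT7, a gene for mucin-type sugar chains, had a log2 fold change of 0.59 ± 0.26, FCGBP, a mucus protein gene, 0.58 ± 0.45, and ZG16B 0.24 ± 0.17. The intestinal goblet cell products CLCA1, ZG16 and SPINK4 had 4, 7 and 12 reads in all 10 libraries.

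Of 15 transcription factors of secretory epithelia, 9 were tested, 6 above and 3 below 0 (median 0.19), with 0 called. FOXA1, a pioneer factor of prostate luminal cells, measured 504 ± 114 CPM in IL-15 tumours and 419 ± 159 CPM in control tumours. SPDEF, which drives goblet cell maturation, measured 141 ± 45.7 CPM in IL-15 tumours and 107 ± 44.7 CPM in control tumours. FOXA2, which drives such genes in gut and lung, had 1 read in all. GATA6 had a log2 fold change of -0.95 ± 0.36 and r = -0.91 with TFF1, KLF4 one of 0.50 ± 0.22, and HNF4G one of -0.52 ± 0.42.

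The oestrogen receptor gene ESR1, the classical inducer of TFF1 in breast cancer cells, had 8 reads in all and was not testable, and ESR2 measured 1.18 ± 0.585 CPM in IL-15 tumours and 1.18 ± 0.525 CPM in control tumours. Of 20 oestrogen response genes 13 were tested, 6 above and 7 below 0 (median -0.07). MYB had a log2 fold change of -0.91 ± 0.48, the protease gene CTSD -0.34 ± 0.18, CELSR2 0.31 ± 0.17 and CXCL12 -1.11 ± 0.78. Of 15 androgen response genes, all tested, 11 were above and 4 below 0 (median 0.17), with log2 fold changes for STEAP4 at 2.62 ± 1.2, ACSL3 at 0.57 ± 0.27 and SLC45A3 at 0.73 ± 0.40. STEAP4 ran from 2.48 to 76.5 CPM in IL-15 tumours and from 0.318 to 12.1 CPM in control tumours. AGR2 had r = 0.64 with STEAP4, 0.61 with ACSL3 and 0.45 with KLK3. No gene of either list was called.

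Of 12 hypoxia genes 8 were above and 4 below 0 (median 0.23), with log2 fold changes for the prolyl hydroxylase gene P4HA1 at 0.46 ± 0.22, BNIP3 at 0.33 ± 0.25, VEGFA at 0.34 ± 0.29 and PDK1 at 0.41 ± 0.39, and 0 called. Their sum was 3840 to 6990 CPM in IL-15 tumours and 2850 to 7490 CPM in control tumours. Proposed receptors and surface partners of these secreted proteins were above 0 for 4 of 8 tested genes (median -0.01, 0 called). CXCR4, a chemokine receptor gene also carried by T cells, had a log2 fold change of 1.35 ± 0.45, LYPD3, a proposed AGR2 receptor gene, 0.58 ± 0.41, LINGO3 -1.02 ± 0.53 and EGFR -0.27 ± 0.29. LINGO2, a proposed TFF3 receptor gene, had no read in any library.

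Transcripts of human lymphocytes also differed between the tumours. The summed 8 T cell markers stood at 30.8, 4.66, 22.2, 16.6 and 5.46 CPM in IL-15 tumours 1 to 5, against 2.92, 2.97, 12.3, 3.49 and 3.55 CPM in control tumours 1 to 5. Of these 8 markers only CD8A and CD4 could be tested, with log2 fold changes of 1.95 ± 0.65 and 0.49 ± 0.45, and every marker had reads in some library. The summed 7 NK cell markers ran from 2.79 to 35.1 CPM in IL-15 tumours and from 0.802 to 12.7 CPM in control tumours. GNLY, GZMB, NKG7 and PRF1 gave most of these reads, with 697, 273, 246 and 225 in all. KLRD1, NCR1 and KLRF1 had only 43, 12 and 2, and the cell type behind the sum was not tested. IL-15 tumours 1, 3 and 4 were high for T cell markers, AGR2 and both trefoil factors. IL-15 tumour 5 held the most TFF1 and TFF3, with T cell markers inside the control range, and IL-15 tumour 2, the lowest of its group for both trefoil factors, was inside it too. In whole tumours, fewer cells of a type and less RNA per cell cannot be told apart, and the part of lymphocyte RNA in these values was not tested.

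The summed 7 myeloid markers ran from 1.97 to 4.44 CPM in IL-15 tumours and from 1.72 to 5.41 CPM in control tumours. Of 9 neuroendocrine markers only ENO2 and SYP could be tested, with log2 fold changes of 0.62 ± 0.46 and 0.08 ± 0.35. CHGA, the defining granule marker, had 48 reads in all. The first principal component over the 500 most variable genes held 34.9% of their variance and had an r of 0.65 with TFF1 and with TFF3, 0.60 with AGR2 and 0.47 with AGR3.

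The genes closest to each member in pattern were sought among 12554 protein-coding genes with a mean of at least 1 CPM, by Pearson r of log2 CPM over the 10 libraries. The closest to TFF1 were MFSD4A (r = 0.967), DIP2A (0.966), PURA (0.954), WDR91 (0.942) and FAM234B (0.940). DIP2A, which lies on chromosome 21 as TFF1 does, had 80.6 to 156 CPM in IL-15 tumours and 59.9 to 92.8 CPM in control tumours. TFF3 took the 60th place in this order. The closest to TFF3 were APOL3 (0.943), AC005726.1 (0.933), the decoy death receptor gene TNFRSF10D (0.911), PFKFB1 (0.908) and DPYSL3 (0.905), with TFF1 in the 36th place. APOL3, an apolipoprotein L gene, measured 5.52 ± 2.58 CPM in IL-15 tumours and 2.08 ± 0.584 CPM in control tumours (log2 fold change 1.31 ± 0.38).

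The closest to AGR2 were YY2 (0.959), the thioredoxin domain gene TXNDC15 (0.952), RASAL3 (0.934), MZB1 (0.921) and PBX2 (0.914). All 5 were lowest in IL-15 tumour 5, as AGR2 was, with TXNDC15 at 44.5 CPM there and 46.8 to 73.5 CPM elsewhere. AGR3 took only the 457th place in the order for AGR2. The closest to AGR3 were the calcium-binding protein gene S100A13 (0.962), ZNF671 (0.892), TTLL5 (0.887), AGAP4 (0.885) and DCAF8 (0.882), with AGR2 in the 552nd place. S100A13 was highest in control tumour 5 at 22.3 CPM and in IL-15 tumour 3 at 22.1 CPM, the 2 tumours with the most AGR3. With the group means removed, the r of these 20 genes with their members ran from 0.80 to 0.96. The 20 genes were picked by r over these same libraries, so their likeness to the members largely follows from that choice. None of the 20 passed edgeR over all genes (adjusted p from 0.758 to 0.992).

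**Figure D5:**
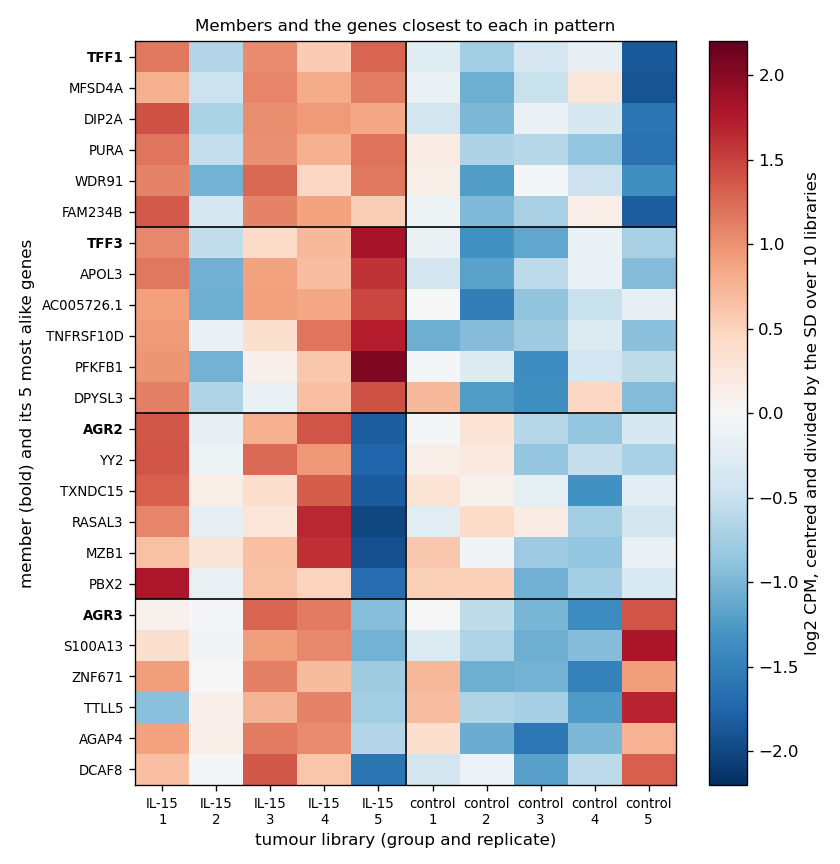
Log2 CPM, centred and divided by the SD over the 10 libraries, of the 4 members (bold) and the 5 protein-coding genes with the highest r to each; columns are libraries, with the IL-15 group on the left. The TFF1 and TFF3 blocks lie above their means in IL-15 libraries 1, 3, 4 and 5, apart from DPYSL3 in library 3, and the AGR2 block is lowest in IL-15 library 5.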

How the data were processed

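Build hg38, HISAT2 2.0.5, fastp, GATK 4.1.1.0, featureCounts 1.5.0-p3 and DESeq2 1.20.0 appear in the submitters' processing notes with no roles or settings. How strand and mouse reads were handled was not stated. The authors deposited read counts for each human gene, unnormalized, per the file headers. The authors' FPKM values are, by the definition of that unit, scaled to gene length and to a library total, which is not given. A deposited table of group means was not used. Gene coordinates are those of the count table.

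Genes were kept with filterByExpr in edgeR 4.0.16 (R 4.3.3; minimum count 10), scaled by TMM and tested by the quasi-likelihood test (robust, no block) at a Benjamini-Hochberg adjusted p of 0.05. CPM uses total counts, and log2 CPM uses TMM and a prior count of 2. Counting intervals are exact Poisson at 95%. All 45 pairs of libraries differed beyond sampling noise (lowest chi-square over its degrees of freedom 20.4). The members and lists were chosen with earlier results of these data known. Named genes are the members, up to 4 tested genes with the smallest p of each list, genes whose absence bears on the label, the 5 closest in pattern and neighbours within 250 kb. Some genes that this rule names are not reported here. Outside this rule, TXNDC12, PDIA3, HSPA5, MUC5AC, FOXA1, SPDEF, ESR2, KLK3 and ATF4 were named after their values were seen. Scripts were tested on simulated data. Alternatives used DESeq2 1.42.0 and limma 3.58.1.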

Additional observations from a re-analysis of the deposited data

How the results depend on the processing

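The log2 fold changes of the 4 genes kept their sign in all alternatives run. With other scalings, filters, tools, FPKM in place of counts and the replicate block they ran from 1.53 to 2.27 for TFF1, 1.18 to 1.54 for TFF3, 0.43 to 0.74 for AGR2 and 0.25 to 0.82 for AGR3, which has no value under a minimum mean of 1 CPM. With each library left out they ran from 1.92 to 2.46, 1.11 to 1.69, 0.46 to 0.89 and 0.27 to 1.48, in the same order of genes. The lowest values of the first ranges came with FPKM and a pseudocount of 1. The count of 0 called genes stayed 0 with each library left out (0 to 0), and was 1 without a low-count filter (MALINC1, named after its value was seen), 7 with DESeq2 and 15 with DESeq2 on every gene with a count, which was added after the data had been seen and took TFF1 past the threshold (adjusted p = 0.0485). In edgeR the replicate block gave 0 called genes and log2 fold changes of 2.05 for TFF1, 1.37 for TFF3, 0.48 for AGR2 and 0.81 for AGR3. Same-numbered tumours correlated above 0.1 in 1 of 5 pairs (r = 0.26 for number 1, and -0.29 to -0.1 for the others). Whether same-numbered tumours share a donor or a batch is not stated, and these values cannot decide it. The r of TFF1 with AGR2 moved to 0.75, and that of TFF1 with AGR3 to 0.65, without IL-15 tumour 5 and control tumour 5. Depth limits AGR3 in every library, and TFF1 in control tumours and in IL-15 tumour 2, which had 15 TFF1 reads.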

Other observations

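ATOH1, which drives goblet and other secretory cell fates in the intestine, was nearly confined to 1 tumour. The IL-15 tumours held 1 of its 81 reads in all, against 72 in control tumour 2 (4.98 CPM) and 7 in control tumour 1. AGR2 stood at 61.9 CPM in control tumour 2, the highest of the controls, and TFF3 at 3.53 CPM, the lowest. PGR, the progesterone receptor gene, had 29 of its 52 reads in control tumour 3 (1.84 CPM). Both genes were chosen after their values were seen.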
